A study of Mus musculus with 48 samples.

Results

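The microglial identity and activation genes described here are 39 genes that mark microglia, the resident macrophages of the brain: receptors and other genes of the homeostatic state, lysosomal genes, and genes of the disease-associated state. They were picked by symbol, with earlier results of these data known. All 39 had a row in both expression tables, which share 16952 genes. Cerebral cortex RNA was sequenced from 48 mice. Sex, genotype and exposure divide them into 12 groups of 4. The genotypes were C57BL/6J (B6), which keeps mouse *Apoe*, and 2 ApoE targeted replacement lines (*APOE*-TR), whose mouse *Apoe* was replaced by human *APOE*3 or *APOE*4. Mice inhaled filtered air (control) or nPM, a nano-sized subfraction of urban particulate matter, for 5 h a day on 3 days a week. B6 mice (age 4 months) were exposed for 8 weeks and *APOE*-TR mice (age 6 months) for 15 weeks, as separate experiments in separate tables. B6 and *APOE*-TR mice were therefore never tested against each other, since genotype, age, exposure and table cannot be told apart. Each *APOE* allele came with its own line, so the allele and any other difference between the 2 lines cannot be told apart either. The tissue held all cell types of the cortex. Fewer microglia, less RNA per microglial cell and RNA from other cell types therefore cannot be told apart in any value below.

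Microglia survey healthy tissue with fine processes, guided by purinergic and chemokine receptors such as *P2ry12* and *Cx3cr1*, and depend on the growth factor receptor *Csf1r*. Around damaged cells, protein deposits or myelin debris they turn down such homeostatic genes and raise lysosomal and lipid-handling genes, among them *Cst7*, *Clec7a* and *Lgals3*, through the receptor *Trem2* and its signalling partner *Tyrobp*. ApoE, the main lipid carrier of the brain, is made by astrocytes and by activated microglia, and human *APOE*4 is the major common risk allele for late-onset Alzheimer disease.

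Values are CPM, the read counts of a gene scaled by the authors to the size of each library, and rescaled here between mice. The estimated depth was 17.8 to 31.3 M (mega) reads in *APOE*-TR mice and 2.05 to 24.4 M reads in B6 mice. Mouse *Apoe* was between 163 and 506 CPM in B6 mice and between 8.78 and 28.9 CPM in *APOE*-TR mice, with no overlap. Among *APOE*-TR mice, 3 libraries stood apart. *APOE*3 female controls 61 and F6 held more short transcripts than the others: the slope of level on transcript length was -0.658 and -0.485 (log2 level per log2 length), against -0.268 to 0.196 in the other 30. *APOE*4 female control 21 was set apart by the microglial genes themselves. Calls of members that rest on these 3 mice are also given without them. Many values of single genes and the counts in other gene lists are given with all mice only.

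All 39 members were detected in both tables, 34 of them with reads in each of the 16 B6 mice and 38 with reads in each of the 32 *APOE*-TR mice. Per kilobase of transcript, 28 members in B6 and 26 in *APOE*-TR mice were above the median of all genes. The lysosomal protease *Ctss* led both tables, with a mean of 18.6 CPM per kb in B6 and 38.2 CPM per kb in *APOE*-TR mice, while *Cd68*, a lysosomal membrane protein, was at 8.37 and 4.92 CPM per kb. These levels of different genes are comparable only per length and within a table. The purinergic and chemokine receptors spanned a wide range in *APOE*-TR mice, with *P2ry12* at 19.4, *Cx3cr1* at 12.4, *Gpr34* at 8.66, *P2ry13* at 5.94 and *P2ry6* at 0.845 CPM per kb. In B6 the same 5 genes were at 10.2, 5.69, 4.41, 6.38 and 1.03 CPM per kb.

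The other homeostatic genes include surface receptors (*Siglech*, *Fcrls*, *Tgfbr1*), the integrin subunit *Itgb5*, the selectin ligand *Selplg*, the transporter *Slco2b1*, the transcription factor *Sall1*, the signalling regulator *Rgs10*, and *Tmem119* and *Olfml3*. *Rgs10* (20.8 CPM per kb) and *Selplg* (14) were the highest of these in *APOE*-TR mice, followed by *Tmem119* (9.63), *Itgb5* (8.31), *Fcrls* (6.14), *Siglech* (6.01), *Tgfbr1* (5.49), *Sall1* (4.25), *Slco2b1* (3.38) and *Olfml3* (2.25 CPM per kb). The growth factor receptor *Csf1r* was at 12.2, the phagocytic receptor *Mertk* at 5.23 and the complement receptor subunit *Itgam* at 3.06 CPM per kb, though 66.3% of the 50-base stretches of *Itgam* also occur in the overlapping gene *Gm49368* and 14.3% of those of *Csf1r* in *Hmgxb3*. *Tyrobp* (19.3 CPM per kb) and *Trem2* (10.7) were far above the other genes of their signalling group, *Inpp5d* (2.02), *Apbb1ip* (0.976), *Cd33* (0.733) and *Plcg2* (0.415 CPM per kb). Of the Fc receptor genes, *Fcgr3* was at 9.23, the shared signalling chain *Fcer1g* at 7.44, *Fcgr1* at 1.19 and the inhibitory receptor *Fcgr2b* at 1.12 CPM per kb. The leukocyte genes ran from *Laptm5* (9.75) through *Ly86* (8.6), *Cd53* (4.17), *Aif1* (3.79) and *Irf8* (1.41) to the phosphatase *Ptprc* (0.448 CPM per kb). The disease-associated genes were among the lowest members, with *Cst7* at 0.707, *Clec7a* at 0.418 and *Lgals3* at 0.266 CPM per kb, and the *Cst7* and *Clec7a* means came largely from 1 mouse. The median coefficient of variation of the members between mice was 38.3% in B6 and 34% in *APOE*-TR mice.

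**Figure D1:**
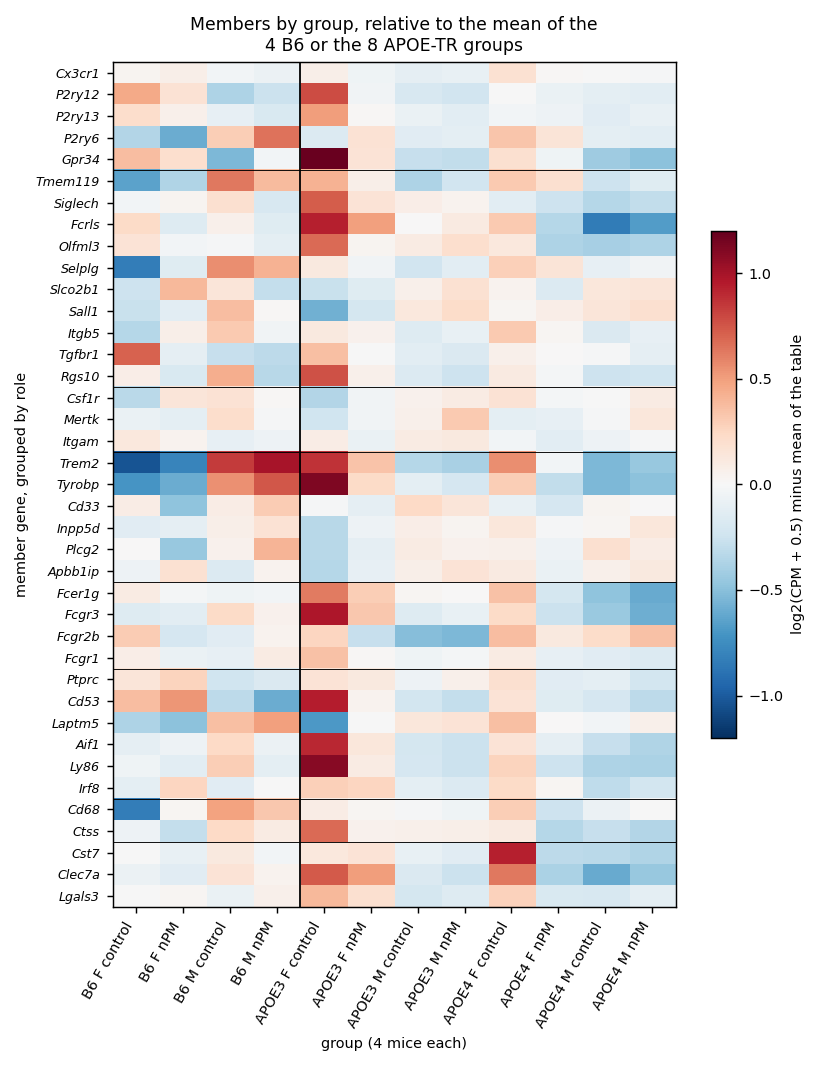
Each row is a member gene, grouped by role, and each column a group of 4 mice; colour is the group mean of log2(CPM + 0.5) minus the mean of the 4 B6 or the 8 APOE-TR groups. APOE3 female controls hold the darkest red (Gpr34, Tyrobp, Ly86), and Cst7 is highest in APOE4 female controls through 1 mouse with 16.4 CPM.

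*APOE*4 female control 21 had the highest level of 23 of the 39 members among the 32 *APOE*-TR mice and was above the median of the other 31 for 38 of them, with a median ratio to that median of 2.04. Over all 13740 genes with at least 30 reads in this mouse the median ratio was 1.01, and 591 genes were above each other mouse. In 26 genes its level was over 2 times that of the next highest mouse, and 5 of these were members: *Cst7*, *Clec7a*, *Cd68*, *Laptm5* and *Ptprc*. No other *APOE*-TR mouse had over 13 such genes or a member among them, and the mouse with the next most members above all others, *APOE*3 female control 61, had 11. The library was of ordinary depth, with 21.3 M reads.

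The leading gene of this mouse among all genes was *Cst7*, which encodes the protease inhibitor cystatin F. *Cst7* in *APOE*3 females was 0.273, 0.372, 0.352 and 0.28 CPM in controls and 0.373, 0.736, 0.149 and 0.218 CPM in nPM mice. *Cst7* in *APOE*4 females was 16.4, 0.128, 0.122 and 0.135 CPM in controls and 0.101, 0.143, 0.0672 and 0.109 CPM in nPM mice. The 16.4 CPM of control 21 rested on 498 reads and was 114 times the median and 22.3 times the highest of the other 31 mice. *Cst7* in *APOE*3 males was 0.358, 0.0684, 0.208 and 0.224 CPM in controls and 0.115, 0.149, 0.287 and 0.197 CPM in nPM mice. *Cst7* in *APOE*4 males was 0.0307, 0.108, 0.177 and 0.0946 CPM in controls and 0.0485, 0.0828, 0.118 and 0.088 CPM in nPM mice. The highest male was at 0.358 CPM. In B6, *Cst7* had no reads in 14 of 16 mice, *Clec7a* in 12 and *Lgals3* in 7, so these genes were not tested there.

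*Clec7a*, the beta-glucan receptor dectin-1, was the other disease-associated gene far above its range in control 21. *Clec7a* in *APOE*3 females was 1.64, 1.38, 2.2 and 0.489 CPM in controls and 1.63, 2.77, 0.559 and 0.254 CPM in nPM mice. *Clec7a* in *APOE*4 females was 11.5, 0.353, 0.304 and 0.472 CPM in controls and 0.201, 0.358, 0.471 and 0.326 CPM in nPM mice. Besides control 21, which was 4.14 times the next highest mouse, 5 *APOE*3 females were over 1 CPM, 3 of them controls and 2 exposed to nPM. *Clec7a* in *APOE*3 males was 0.477, 0.57, 0.356 and 0.448 CPM in controls and 0.633, 0.422, 0.221 and 0.393 CPM in nPM mice. *Clec7a* in *APOE*4 males was 0.0922, 0.135, 0.31 and 0.355 CPM in controls and 0.315, 0.193, 0.402 and 0.264 CPM in nPM mice. The smallest unadjusted p of its nPM comparisons was 0.186, in *APOE*4 females (log2 difference -1.01 ± 0.72), and of its allele comparisons 0.00718, in control males (log2 difference -0.43 ± 0.13). *Lgals3*, which encodes the lectin galectin-3, was second highest of the *APOE*-TR mice in control 21, at 3.15 times the median of the others. *Lgals3* in *APOE*3 females was 0.623, 1.04, 0.485 and 0.419 CPM in controls and 0.611, 0.912, 0.224 and 0.291 CPM in nPM mice. *Lgals3* in *APOE*4 females was 0.953, 0.482, 0.426 and 0.37 CPM in controls and 0.235, 0.251, 0.302 and 0.218 CPM in nPM mice. *APOE*3 female control F6 was the highest, at 1.04 CPM against 0.953 CPM in control 21. *Lgals3* in *APOE*3 males was 0.179, 0.182, 0.326 and 0.28 CPM in controls and 0.288, 0.174, 0.199 and 0.421 CPM in nPM mice. *Lgals3* in *APOE*4 males was 0.123, 0.406, 0.111 and 0.402 CPM in controls and 0.218, 0.387, 0.308 and 0.235 CPM in nPM mice. In *APOE*4 females each nPM mouse was below each control, but the difference of -0.46 ± 0.15 (log2, SE) had an unadjusted p of 0.0115, which missed the threshold of 0.005.

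*Trem2*, the lipid-sensing receptor that drives the disease-associated state, and its adaptor *Tyrobp* were both at their highest in control 21. *Trem2* in *APOE*3 females was 16.6, 22.9, 24.9 and 14.2 CPM in controls and 17.1, 11.7, 10.7 and 14 CPM in nPM mice. *Trem2* in *APOE*4 females was 48.8, 10.02, 10.5 and 10.8 CPM in controls and 10.6, 10.02, 11.6 and 8.2 CPM in nPM mice. The other 3 *APOE*4 female controls were within 1 CPM of each other. *Trem2* in *APOE*3 males was 8.26, 7.39, 7.51 and 9.15 CPM in controls and 8.44, 6.55, 7.24 and 8.91 CPM in nPM mice. *Trem2* in *APOE*4 males was 6.06, 8.49, 6.11 and 7.26 CPM in controls and 7.86, 6.85, 7.74 and 7.04 CPM in nPM mice. Males of both alleles were within 6.06 to 9.15 CPM. *Trem2* in B6 females was 3.55, 1.51, 2.6 and 1.91 CPM in controls and 3.7, 2.01, 2.11 and 3.8 CPM in nPM mice. *Trem2* in B6 males was 16.8, 8.31, 9.7 and 6.54 CPM in controls and 11, 9.48, 10.7 and 12.3 CPM in nPM mice. Each B6 male was above each B6 female. None of the nPM or allele comparisons called *Trem2*: the smallest unadjusted p were 0.0388, in *APOE*3 females (log2 difference -0.52 ± 0.22), and 0.0361, in nPM females (log2 difference -0.38 ± 0.16).

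*Tyrobp* transmits the signal of *Trem2* into the cell. *Tyrobp* in *APOE*3 females was 14.2, 27.6, 34.3 and 14.9 CPM in controls and 17.8, 8.77, 8.98 and 11.1 CPM in nPM mice. *Tyrobp* in *APOE*4 females was 36.6, 7.48, 7.2 and 9.36 CPM in controls and 7.95, 7.77, 7.5 and 7.4 CPM in nPM mice. Control 21 (36.6 CPM) was followed by *APOE*3 female controls 61 (34.3 CPM) and F6 (27.6 CPM). *Tyrobp* in *APOE*3 males was 8.47, 8.25, 8.84 and 9.23 CPM in controls and 8.32, 8.13, 7.95 and 8.23 CPM in nPM mice. *Tyrobp* in *APOE*4 males was 5.26, 7.41, 6.11 and 6.88 CPM in controls and 6.48, 6.52, 6.86 and 6.6 CPM in nPM mice. In both sets of males every *APOE*4 mouse was below every *APOE*3 mouse. *Tyrobp* in B6 females was 3.6, 2.11, 3.55 and 2.31 CPM in controls and 1.87, 3.48, 3.98 and 3.44 CPM in nPM mice. *Tyrobp* in B6 males was 9.41, 6.69, 7.27 and 6.62 CPM in controls and 9.59, 7.37, 9.16 and 8.31 CPM in nPM mice. As for *Trem2*, B6 males and females did not overlap.

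*Cd68*, a lysosomal glycoprotein used as a stain for phagocytic microglia, lay close together in *APOE*-TR mice other than control 21. *Cd68* in *APOE*3 females was 7.28, 5.81, 5.82 and 5.98 CPM in controls and 5.91, 6.49, 4.85 and 6.5 CPM in nPM mice. *Cd68* in *APOE*4 females was 20.6, 5.04, 4.77 and 5.22 CPM in controls and 5.07, 4.19, 5.21 and 4.72 CPM in nPM mice. Without control 21 no *APOE*4 female was above 5.22 CPM. *Cd68* in *APOE*3 males was 5.87, 5.7, 5.61 and 5.65 CPM in controls and 7.14, 4.91, 4.9 and 5.51 CPM in nPM mice. *Cd68* in *APOE*4 males was 4.92, 6.19, 5.31 and 5.53 CPM in controls and 5.53, 5.63, 6.25 and 5.6 CPM in nPM mice. Leaving out control 21, the 31 *APOE*-TR mice lay between 4.19 and 7.28 CPM. *Cd68* in B6 females was 6.43, 3.72, 2.79 and 9.75 CPM in controls and 7.86, 11.1, 10.6 and 9.42 CPM in nPM mice. *Cd68* in B6 males was 13.3, 13.6, 12.6 and 14.3 CPM in controls and 8.35, 14.2, 11.8 and 14.9 CPM in nPM mice. Its smallest unadjusted p for nPM was 0.0343, in B6 females (log2 difference 0.86 ± 0.37), and for the allele 0.0444, in nPM females (log2 difference -0.28 ± 0.12).

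Homeostatic genes were raised unevenly in control 21. *Cx3cr1* (90.1 CPM, highest other 65.2) and *Csf1r* (93.6, highest other 66.1) were above every other mouse, *Tmem119* was barely so (32.4, highest other 31.2), and *P2ry12* (55.9, highest other 110.5) and *Mertk* (21.4 CPM, 0.95 of the median of the others) were within the range. Of further genes of the disease-associated state, 12 of 17 were above every other mouse, as were 10 of 14 further homeostatic and core microglial genes. Markers of border macrophages were not among the raised genes (0 of 7 above every other mouse, median ratio to the median 0.938). Of the other cell types, 1 of 8 markers of blood monocytes and neutrophils, 1 of 7 of astrocytes, 2 of 7 of oligodendrocytes and 2 of 7 of their precursors were above every other mouse. More of these markers were above the median of the others, 7 of 8, 7 of 7, 7 of 7 and 6 of 7, with median ratios of 1.22, 1.19, 1.34 and 1.29, against 2.04 for the members. Neuronal markers had 1 of 7 above every other mouse and a median ratio of 0.986, and endothelial markers 0 of 7 and 0.487. The other mice include males: summed endothelial markers were 60.2 CPM in control 21, 54.6 to 76.3 CPM in its group and 90.2 to 119.97 CPM in *APOE*4 male controls. The part of these cells in the result was not tested. Genes outside the members and chosen after their values were seen included *Itgax* (4.57 CPM, 8.14 times the next highest mouse), the chemokine *Ccl3* (3.65 CPM, 7.16 times) and the astrocyte filament gene *Gfap* (462 CPM, 2.39 times).

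**Figure D2:**
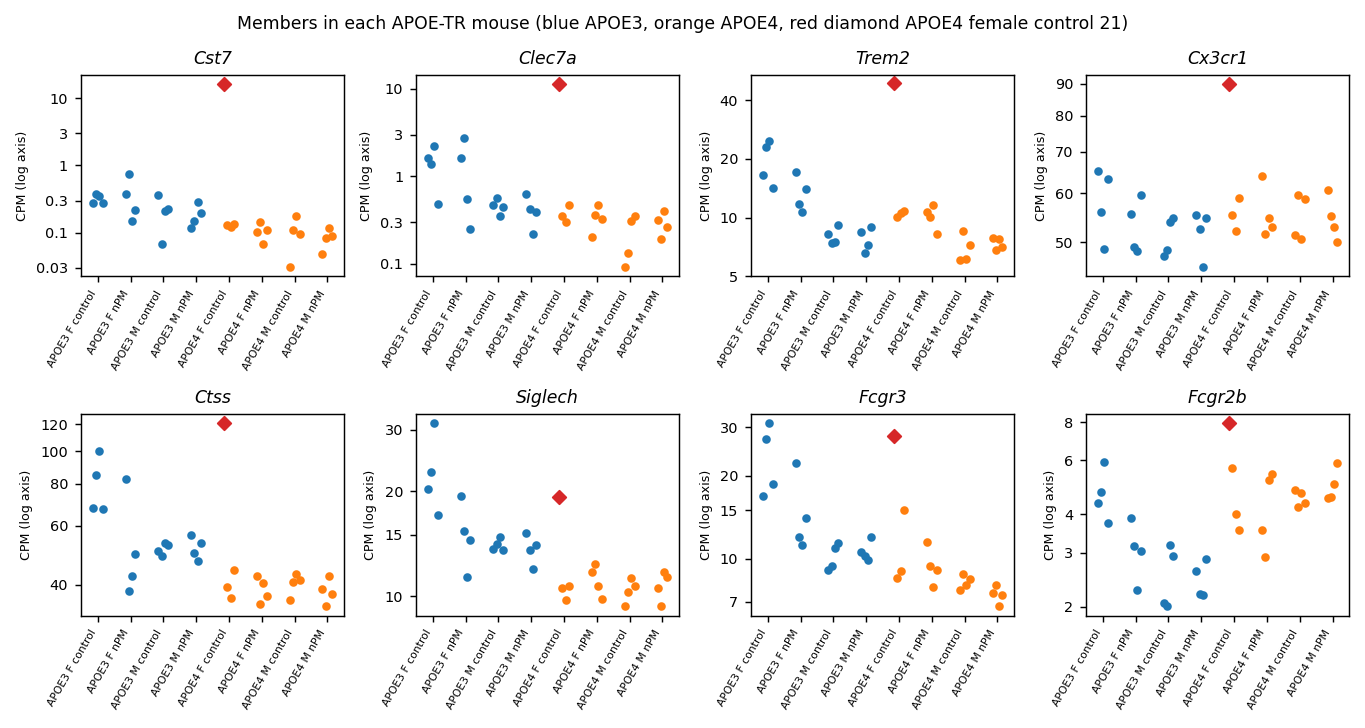
Each point is 1 APOE-TR mouse, in 8 groups of 4, with CPM on a log axis; blue is APOE3, orange APOE4 and the red diamond APOE4 female control 21. Cst7 in that mouse was 16.4 CPM against at most 0.736 in the others, Cx3cr1 was 90.1 against at most 65.2 CPM, and among males Ctss, Siglech and Fcgr3 were lower and Fcgr2b higher with APOE4.

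The first comparison asked whether nPM changed these genes across sexes and genotypes. Over all 48 mice, *Rgs10*, which encodes a regulator of G-protein signalling that dampens NF-κB activity in microglia, was the 1 member of 34 tested that passed the threshold (unadjusted p under 0.005), against 1.48% of all genes. *Fcgr2b*, *Cst7*, *Clec7a*, *Lgals3* and *Plcg2* lacked reads in some mice and were not tested. At an unadjusted p under 0.05, 5 members were lower (*Rgs10*, *Tgfbr1* -0.24, *Ly86* -0.35, *Ctss* -0.25 and *Olfml3* -0.22 on the log2 scale) and 0 higher, where 6.07% of all genes were lower. The median log2 difference of the members was -0.10 against 0.01 over all genes, and -0.03 without *APOE*4 female control 21. Among other lists, 2 of 10 further homeostatic and core microglial genes and 3 of 12 further disease-associated genes tested were lower at p under 0.05, and 0 were higher.

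*Rgs10* in *APOE*3 females was 26, 32.9, 38.2 and 25.7 CPM in controls and 23.2, 16, 16 and 19.1 CPM in nPM mice. *Rgs10* in *APOE*4 females was 27.6, 16.2, 15.7 and 18.5 CPM in controls and 19, 17.2, 17.1 and 16.2 CPM in nPM mice. In *APOE*3 females each nPM mouse was below each control, and in *APOE*4 females the groups overlapped. *Rgs10* in *APOE*3 males was 14.2, 15.2, 16.3 and 17.1 CPM in controls and 16.8, 13.2, 14.2 and 15 CPM in nPM mice. *Rgs10* in *APOE*4 males was 14.4, 15.2, 14.9 and 14.4 CPM in controls and 14.8, 15.1, 15.2 and 14.2 CPM in nPM mice. The *APOE*-TR males were within 13.2 to 17.1 CPM. *Rgs10* in B6 females was 11, 12.8, 20.2 and 14.5 CPM in controls and 17.9, 10.3, 12.8 and 8.27 CPM in nPM mice. *Rgs10* in B6 males was 39.7, 16.4, 13.3 and 13.1 CPM in controls and 12.9, 11.1, 12.9 and 6.93 CPM in nPM mice. B6 male nPM mice were below all B6 male controls, of which control 0 was far above the rest. *Rgs10* fell by 0.32 ± 0.11 on the log2 scale over 48 mice (limma, unadjusted p = 0.00476, adjusted p = 0.301), and without *APOE*4 female control 21 the difference was -0.30 (unadjusted p = 0.0084), which missed the threshold of 0.005. The call held in 23 of the 48 fits that left out 1 mouse, with the smallest difference, -0.25, without B6 male control 0. It was also lost without *APOE*3 female controls F6 and 61. B6 male control 0 had the lowest length slope of the B6 mice, -0.348, and the *Rgs10* transcript is short, 880 bases. The part of transcript length in this call was not tested beyond the covariate fit.

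In B6 females 1 of 34 members tested passed, against 1.21% of all genes: *Tgfbr1*, the type I receptor for TGF-beta, a factor that keeps microglia in the homeostatic state. *Tgfbr1* in B6 females was 25.4, 25.5, 24.7 and 21.6 CPM in controls and 11.3, 10.4, 17.6 and 16.3 CPM in nPM mice. *Tgfbr1* in B6 males was 9.91, 14.3, 9.68 and 15.3 CPM in controls and 8.31, 12.3, 15.9 and 11.5 CPM in nPM mice. In B6 females each nPM mouse was below each control, and B6 males showed no such separation. *Tgfbr1* in *APOE*3 females was 34.4, 47.8, 37.8 and 42.3 CPM in controls and 39, 22.4, 30.6 and 35 CPM in nPM mice. *Tgfbr1* in *APOE*4 females was 42.1, 28, 27 and 35.1 CPM in controls and 34.7, 33.9, 30.4 and 27 CPM in nPM mice. Among the *APOE*-TR females the nPM mice overlapped the controls. *Tgfbr1* in *APOE*3 males was 28.4, 27.9, 29.9 and 27.7 CPM in controls and 27.5, 28.5, 24.6 and 30.01 CPM in nPM mice. *Tgfbr1* in *APOE*4 males was 33.2, 32.4, 30.4 and 27.5 CPM in controls and 31, 29.3, 28 and 27.4 CPM in nPM mice. Males overlapped likewise. *Tgfbr1* fell by 0.82 ± 0.23 on the log2 scale in B6 females (limma, unadjusted p = 0.00319, adjusted p = 0.384), and the two-sided exact permutation test gave the smallest p that 4 mice against 4 allow, 0.0286. This call held in 2 of the 8 fits that left out 1 mouse, with differences from -0.94 to -0.70. Summed astrocyte markers were 3167 to 3654 CPM in B6 female controls and 2392 to 2991 CPM in nPM mice. Their part in the *Tgfbr1* difference was not tested. *Cd68* (0.86) and *Selplg* (0.68) had positive log2 differences in B6 females at an unadjusted p under 0.05.

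No member passed in B6 males (limma, 0 of 35 tested against 0.241% of all genes, 0 at p under 0.05), in *APOE*3 males (0 of 39 against 0.154%, 1 at p under 0.05), in *APOE*4 females (0 of 39 against 0.272%, 1 at p under 0.05) or in *APOE*4 males (0 of 38 against 0.178%, 0 at p under 0.05). In the 3 *APOE*-TR strata edgeR and DESeq2 on recovered reads also called 0. The 1 member at p under 0.05 in *APOE*3 males was *Mertk*, a receptor for engulfing apoptotic cells, with a log2 difference of 0.26 ± 0.09. In *APOE*4 females 37 of 39 members had negative differences, with a median of -0.21, but this rested on control 21: without it the median was -0.02, *Cst7* went from -1.24 to -0.06, *Clec7a* from -1.01 to -0.07 and *Trem2* from -0.60 to -0.06.

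*APOE*3 females had the most negative values. Here 15 of 39 members were lower in nPM mice at an unadjusted p under 0.05 and 0 were higher, where 10.1% of all genes were lower, and the median log2 difference was -0.24 against -0.01 for all genes. The 15 were 3 of 5 purinergic and chemokine receptors (*Gpr34* -1.02, *P2ry12* -0.83, *P2ry13* -0.49), 3 of 10 other homeostatic genes (*Rgs10* -0.71, *Olfml3* -0.65, *Siglech* -0.57), *Trem2* (-0.52) and *Tyrobp* (-0.89), 3 of 4 Fc receptor genes (*Fcgr3* -0.64, *Fcgr2b* -0.53, *Fcer1g* -0.32), 3 of 6 leukocyte genes (*Ly86* -0.99, *Cd53* -0.90, *Aif1* -0.77) and *Ctss* (-0.63). *Cx3cr1* (-0.13), *Tmem119* (-0.35), *Csf1r* (0.32), *Cd68* (-0.07), *Laptm5* (0.69) and *Sall1* (0.37) did not pass. *Rgs10* alone was under 0.005 (unadjusted p = 0.00319, adjusted p = 0.229), as were 0.665% of all genes, and its fall of 0.71 ± 0.18 on the log2 scale had an exact permutation p of 0.0286. In 3 members, *Rgs10*, *P2ry13* and *Olfml3*, the groups did not overlap, against 6.87% of all genes.

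Transcript length was set beside these differences, and its part in them was not tested beyond the covariate given here. Across the 39 members, the log2 difference in *APOE*3 females correlated with log2 transcript length (Pearson's r 0.49, Spearman's rho 0.48), as it did across all genes (r 0.48); genes are not independent replicates, and the same 8 libraries underlie both. The 20 members with transcripts up to 2344 bases had a median difference of -0.55 and the 19 longer ones -0.04. With the length slope of each mouse as a covariate, the median of the members was -0.21 against -0.01 for all genes, and 7 members were lower at p under 0.05, where 4.30% of all genes were. Without controls F6 and 61 the median was -0.27 and 5 members were lower, where 3.01% of all genes were, and *Rgs10* no longer passed 0.005. Of 14 further homeostatic and core microglial genes 7 were lower at p under 0.05, and of 17 further disease-associated genes 5 were, among them the tetraspanin gene *Cd9* (-0.69, past 0.005). Of 7 receptor ligands 1 was higher, of 7 microglial transcription factors 2 were higher and 1 lower, and of 7 genes of TREM2 and ITAM signalling 0 passed (limma). Beside these, 3 of 7 border macrophage markers, 3 of 7 astrocyte markers and 3 of 7 oligodendrocyte markers were also lower at p under 0.05 and 3 of 7 neuronal markers were higher and 1 lower (Gad1). The summed border macrophage markers were 4.19 to 9.16 CPM in controls and 3.36 to 5.67 CPM in nPM mice, with each of the 7 detected in every *APOE*-TR mouse, and the summed oligodendrocyte markers 4814 to 6509 and 3788 to 5054 CPM.

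**Figure D3:**
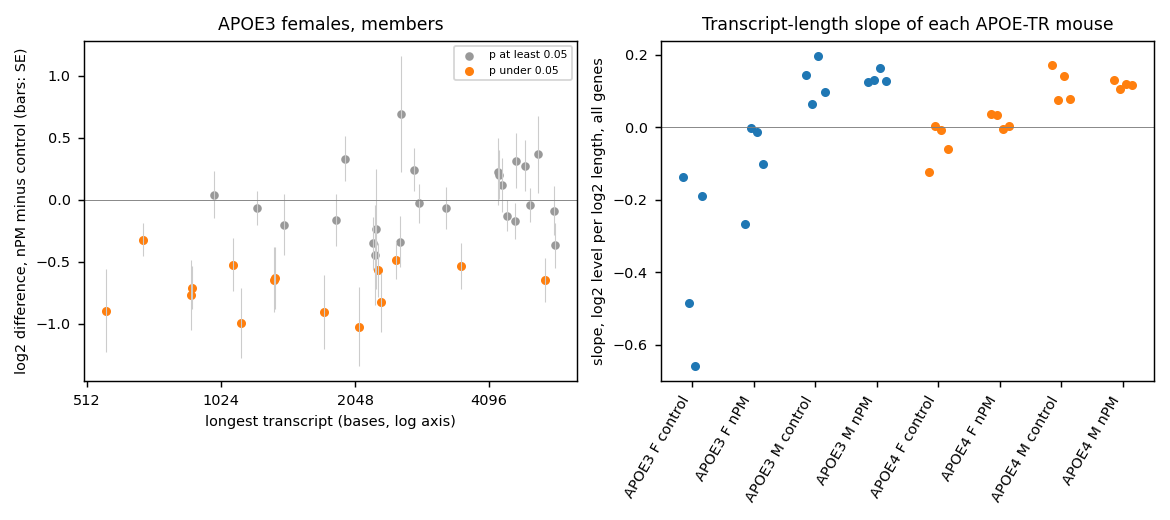
The left panel plots the nPM difference (log2, bars SE) of each member in APOE3 females against its longest transcript on a log axis, and the right panel the transcript-length slope of each APOE-TR mouse over all genes. Short members lie lowest on the left (median -0.55 against -0.04 for long ones), and 2 APOE3 female controls have slopes of -0.658 and -0.485 on the right.

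*P2ry12*, the ADP receptor that steers microglial processes, shows the pattern of *APOE*3 females mouse by mouse. *P2ry12* in *APOE*3 females was 62.4, 80.8, 110.5 and 58.9 CPM in controls and 59.1, 37.1, 33.8 and 43.8 CPM in nPM mice. *P2ry12* in *APOE*4 females was 55.9, 37.1, 39.3 and 43.5 CPM in controls and 45.4, 36.6, 42.6 and 41.2 CPM in nPM mice. Control 61 had the highest value of the 48 mice, followed by control F6, while nPM mouse 55 overlapped the controls. *P2ry12* in *APOE*3 males was 38.5, 37.6, 38.7 and 38.1 CPM in controls and 42.6, 43.2, 31.2 and 33.5 CPM in nPM mice. *P2ry12* in *APOE*4 males was 39.5, 39.9, 39.7 and 41.7 CPM in controls and 41.9, 42.5, 38.5 and 36.8 CPM in nPM mice. Males were within 31.2 to 43.2 CPM. *P2ry12* in B6 females was 39.2, 31.3, 27.6 and 28.6 CPM in controls and 31, 25.8, 38.6 and 13.9 CPM in nPM mice. *P2ry12* in B6 males was 19.5, 17.5, 13.4 and 20.2 CPM in controls and 22.4, 21.7, 18.6 and 14 CPM in nPM mice. In B6 both exposure groups overlapped in each sex.

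*Gpr34*, a receptor for lysophosphatidylserine, had the lowest nPM difference of all members in *APOE*3 females (-1.02 ± 0.32, unadjusted p = 0.0107). *Gpr34* in *APOE*3 females was 25.6, 43, 63.4 and 28.9 CPM in controls and 28.7, 16.8, 14.1 and 16.6 CPM in nPM mice. *Gpr34* in *APOE*4 females was 30.7, 15.9, 13.9 and 18 CPM in controls and 16.8, 15.1, 16 and 14.7 CPM in nPM mice. *APOE*3 female controls 61 and F6 were again the highest of the mice. *Gpr34* in *APOE*3 males was 13.4, 14.1, 13.9 and 12.3 CPM in controls and 15.5, 14.6, 10.6 and 12.6 CPM in nPM mice. *Gpr34* in *APOE*4 males was 10.8, 12.9, 11.7 and 12.4 CPM in controls and 12.6, 12.4, 11.4 and 9.48 CPM in nPM mice. In males the exposure groups overlapped for both alleles. *Gpr34* in B6 females was 10.4, 12.7, 13.4 and 9.46 CPM in controls and 11.2, 11.5, 15.6 and 5.17 CPM in nPM mice. *Gpr34* in B6 males was 4.5, 6.04, 6.75 and 6.32 CPM in controls and 8.51, 7.93, 8.28 and 9.55 CPM in nPM mice. In B6 males each nPM mouse was above each control, with a difference of 0.51 ± 0.28 that did not pass (unadjusted p = 0.0914).

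*Cx3cr1*, the fractalkine receptor, was among the steadiest members, with a coefficient of variation of 14.4% in *APOE*-TR mice. *Cx3cr1* in *APOE*3 females was 65.2, 55.9, 48.7 and 63.3 CPM in controls and 55.5, 49.2, 48.4 and 59.6 CPM in nPM mice. *Cx3cr1* in *APOE*4 females was 90.1, 55.3, 52.2 and 58.8 CPM in controls and 64, 51.6, 54.7 and 53 CPM in nPM mice. Control 21 was the only mouse outside 48.4 to 65.2 CPM among these females. *Cx3cr1* in *APOE*3 males was 47.5, 48.6, 53.8 and 54.7 CPM in controls and 55.3, 52.4, 45.6 and 54.7 CPM in nPM mice. *Cx3cr1* in *APOE*4 males was 51.3, 59.7, 50.5 and 58.6 CPM in controls and 60.7, 55, 52.8 and 49.96 CPM in nPM mice. No male was above 60.7 CPM. *Cx3cr1* in B6 females was 22, 18.8, 37.2 and 25.7 CPM in controls and 20.3, 41, 29.2 and 17.9 CPM in nPM mice. *Cx3cr1* in B6 males was 38.8, 17.7, 16.4 and 28.5 CPM in controls and 31.4, 24.2, 17.6 and 22 CPM in nPM mice. Every pair of exposure groups overlapped. The smallest unadjusted p for nPM was 0.283, in *APOE*4 females (log2 difference -0.17 ± 0.15), and for the allele 0.188, in control males (log2 difference 0.10 ± 0.07).

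*Tmem119*, a transmembrane protein used to tell microglia from other macrophages, was not called either. *Tmem119* in *APOE*3 females was 29.6, 29.4, 26.7 and 27.5 CPM in controls and 31.2, 14.1, 21.5 and 24.9 CPM in nPM mice. *Tmem119* in *APOE*4 females was 32.4, 21.5, 23.3 and 28.8 CPM in controls and 28.5, 20.3, 23.3 and 24.7 CPM in nPM mice. *APOE*3 female nPM mouse 59 was the lowest of these females. *Tmem119* in *APOE*3 males was 15.9, 19.1, 12.4 and 17.7 CPM in controls and 18, 17.3, 16.3 and 19.95 CPM in nPM mice. *Tmem119* in *APOE*4 males was 15.5, 20.3, 15.8 and 19 CPM in controls and 20.1, 19.4, 19.3 and 17.1 CPM in nPM mice. Control and nPM mice overlapped in all 4 strata. *Tmem119* in B6 females was 6.44, 6.93, 7.59 and 5.13 CPM in controls and 4.37, 5.91, 23.8 and 6.29 CPM in nPM mice. *Tmem119* in B6 males was 18.9, 13.2, 14.8 and 19.4 CPM in controls and 17.3, 15.3, 11.8 and 11.1 CPM in nPM mice. B6 female nPM mouse 52 was far above the other B6 females. Its smallest unadjusted p was 0.138, in *APOE*3 females (log2 difference -0.35 ± 0.21) for nPM and 0.272, in nPM males (log2 difference 0.08 ± 0.07) for the allele.

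*Csf1r*, the receptor for the survival factors CSF1 and IL-34, had its lowest values among *APOE*-TR mice in *APOE*3 female controls F6 and 61. *Csf1r* in *APOE*3 females was 57.2, 37.3, 29.8 and 59.7 CPM in controls and 49, 59.95, 53.8 and 58.2 CPM in nPM mice. *Csf1r* in *APOE*4 females was 93.6, 55.6, 54 and 58.8 CPM in controls and 62.7, 55.7, 54.3 and 51.3 CPM in nPM mice. Control 21 was the highest. *Csf1r* in *APOE*3 males was 59.4, 58.9, 58.4 and 58.6 CPM in controls and 64, 58.4, 54.8 and 65.4 CPM in nPM mice. *Csf1r* in *APOE*4 males was 49.2, 58.5, 53 and 66.1 CPM in controls and 59.8, 61.9, 63 and 57.2 CPM in nPM mice. Males were between 49.2 and 66.1 CPM. *Csf1r* in B6 females was 26.7, 24.2, 20.3 and 25.6 CPM in controls and 23.4, 58.3, 28.4 and 32.2 CPM in nPM mice. *Csf1r* in B6 males was 30.8, 34, 25.1 and 51.4 CPM in controls and 26.8, 21.8, 41 and 36.2 CPM in nPM mice. The smallest unadjusted p was 0.0884, in B6 females (log2 difference 0.47 ± 0.25) for nPM and 0.0763, in control females (log2 difference 0.53 ± 0.26) for the allele.

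*Aif1*, which encodes the actin-binding protein IBA1, is the common stain for microglia. *Aif1* in *APOE*3 females was 4.4, 7.56, 8.72 and 5.14 CPM in controls and 5.67, 2.35, 3.06 and 3.41 CPM in nPM mice. *Aif1* in *APOE*4 females was 6.01, 2.89, 2.89 and 3.03 CPM in controls and 2.92, 2.61, 3.13 and 2.72 CPM in nPM mice. *APOE*3 female controls 61 and F6 were the highest of these mice. *Aif1* in *APOE*3 males was 2.18, 2.69, 2.97 and 2.63 CPM in controls and 2.71, 2.08, 2.3 and 3.03 CPM in nPM mice. *Aif1* in *APOE*4 males was 2.34, 2.76, 2.26 and 2.53 CPM in controls and 2.38, 2.13, 2.32 and 2.38 CPM in nPM mice. Males were within 2.08 to 3.03 CPM. *Aif1* in B6 females was 2.05, 1.78, 1.16 and 0.573 CPM in controls and 0.336, 3.06, 1.62 and 1.35 CPM in nPM mice. *Aif1* in B6 males was 4.58, 0.516, 2.92 and 1.02 CPM in controls and 4.75, 0.876, 0.823 and 0.686 CPM in nPM mice. The B6 exposure groups overlapped in each sex, with values from 0.336 to 4.75 CPM. The smallest unadjusted p was 0.0244, in *APOE*3 females (log2 difference -0.77 ± 0.28) for nPM and 0.0269, in control females (log2 difference -0.74 ± 0.28) for the allele, neither past its threshold.

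**Figure D4:**
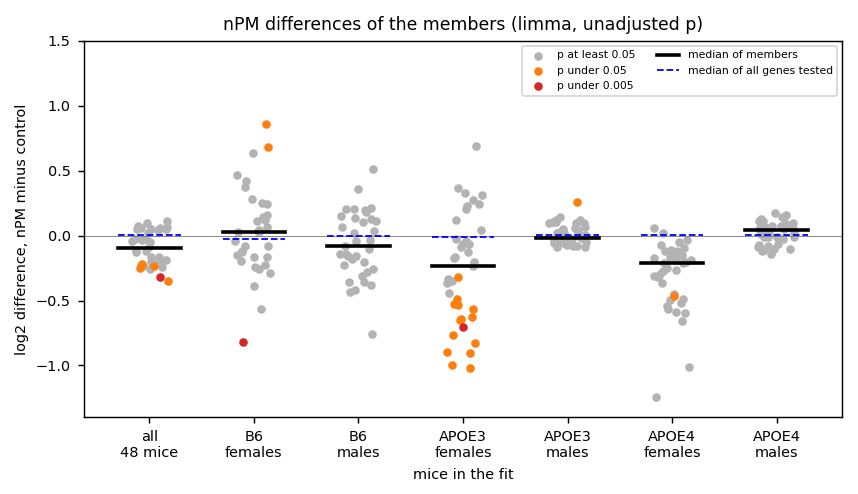
Each point is a member tested, placed by its log2 difference between nPM and control in the fit of all 48 mice and in 6 strata of 8 mice; orange is an unadjusted p under 0.05, red under 0.005, black lines are medians of the members and dashed blue lines medians of all genes. APOE3 females hold 15 of 39 members under 0.05, all lower, and members of both APOE-TR male strata lie near 0.

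The other main comparison set *APOE*4 against *APOE*3 mice, first within each sex and exposure. In males a small set of members differed, and differed alike in 2 sets of animals that share no mouse but come from the same 2 lines. *Ctss*, *Siglech*, *Fcgr3*, *Fcer1g*, *Tyrobp*, *Olfml3* and *Fcrls* were lower and *Fcgr2b* higher in *APOE*4 males, both in controls and in nPM mice, at an unadjusted p under 0.05 in each set. Most defining microglial genes were not among them: log2 differences in control and nPM males were 0.10 and 0.07 for *Cx3cr1*, 0.07 and 0.10 for *P2ry12*, 0.12 and 0.08 for *Tmem119*, -0.06 and -0.00 for *Csf1r*, -0.07 and -0.10 for *Aif1*, -0.06 and 0.05 for *Cd68*, and -0.20 and -0.07 for *Trem2*.

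In control males, 3 of 38 members passed 5% FDR (*Siglech*, *Ctss* and *Fcgr2b*), against 0.433% of all genes. At an unadjusted p under 0.05, 8 were lower and 1 higher, where 3.36% of all genes were lower. The groups did not overlap for 9 members, against 3.76% of all genes. In nPM males, 3 of 39 passed 5% FDR (*Ctss*, *Fcgr3* and *Fcgr2b*), against 0.475% of all genes. At p under 0.05, 9 were lower and 1 higher, where 4.97% of all genes were lower, and 8 did not overlap, against 5.75% of all genes. The median log2 difference of the members was -0.06 in control and -0.05 in nPM males, against 0.00 for all genes in both. Of the 9 members at p under 0.05 in control males, all 9 had the same sign in nPM males and 8 were again at p under 0.05. Over the 38 members tested in both sets, 30 had the same sign. How often other genes repeated was not counted, so the repeat is not shown to be particular to the members. Leaving out any 1 of the 8 control males left 0 or 1 call at 5% FDR, and in nPM males *Fcgr2b* passed in 8 of 8 such fits, *Fcgr3* in 3 and *Ctss* in 2. The member at p under 0.05 in control males alone was *Clec7a* (-0.43 and -0.20).

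The 300 bases around the transcript starts of the 4 genes called in males and of *Cst7* and *Clec7a* follow (250 before to 50 after the start, RefSeq, GRCm38.p6, 5′ to 3′ on the gene's strand) so that the start regions of genes that were lower, higher or raised in 1 mouse can be compared. Capitals mark GAGGAA or its reverse complement TTCCTC, the core of the purine-rich element bound by the microglial factor *Spi1* (PU.1).
Ctss, chr3:95526536-95526835, + strand: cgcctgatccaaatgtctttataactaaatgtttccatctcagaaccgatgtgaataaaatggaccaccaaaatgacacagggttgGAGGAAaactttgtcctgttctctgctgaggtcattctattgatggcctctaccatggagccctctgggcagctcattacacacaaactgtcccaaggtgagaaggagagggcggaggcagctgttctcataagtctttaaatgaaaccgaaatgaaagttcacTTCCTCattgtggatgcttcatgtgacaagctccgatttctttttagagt
Siglech, chr7:55767934-55768233, + strand: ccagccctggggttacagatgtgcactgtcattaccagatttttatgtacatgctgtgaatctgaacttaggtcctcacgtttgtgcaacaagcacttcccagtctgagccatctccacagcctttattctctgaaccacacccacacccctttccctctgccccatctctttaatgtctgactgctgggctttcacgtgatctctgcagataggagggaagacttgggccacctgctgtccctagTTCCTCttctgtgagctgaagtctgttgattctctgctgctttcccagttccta
Fcgr3, chr1:171059354-171059653, - strand: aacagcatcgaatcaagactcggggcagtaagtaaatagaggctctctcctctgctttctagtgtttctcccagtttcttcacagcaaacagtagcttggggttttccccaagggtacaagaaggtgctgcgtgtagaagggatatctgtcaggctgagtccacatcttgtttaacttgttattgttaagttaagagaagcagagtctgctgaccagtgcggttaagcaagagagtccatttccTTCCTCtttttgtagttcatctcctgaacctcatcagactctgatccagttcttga
Fcgr2b, chr1:170976022-170976321, - strand: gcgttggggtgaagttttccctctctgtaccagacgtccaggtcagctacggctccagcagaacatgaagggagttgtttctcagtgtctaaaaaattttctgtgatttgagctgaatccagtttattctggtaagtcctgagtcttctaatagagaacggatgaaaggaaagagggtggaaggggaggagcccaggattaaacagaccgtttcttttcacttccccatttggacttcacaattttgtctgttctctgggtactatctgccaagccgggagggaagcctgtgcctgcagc
Clec7a, chr6:129472730-129473029, - strand: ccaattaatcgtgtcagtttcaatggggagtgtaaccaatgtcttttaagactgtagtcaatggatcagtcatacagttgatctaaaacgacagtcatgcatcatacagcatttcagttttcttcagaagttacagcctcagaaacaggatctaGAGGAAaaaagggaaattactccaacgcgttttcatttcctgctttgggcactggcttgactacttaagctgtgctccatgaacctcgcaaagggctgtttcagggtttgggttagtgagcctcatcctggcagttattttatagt
Cst7, chr2:150570165-150570464, + strand: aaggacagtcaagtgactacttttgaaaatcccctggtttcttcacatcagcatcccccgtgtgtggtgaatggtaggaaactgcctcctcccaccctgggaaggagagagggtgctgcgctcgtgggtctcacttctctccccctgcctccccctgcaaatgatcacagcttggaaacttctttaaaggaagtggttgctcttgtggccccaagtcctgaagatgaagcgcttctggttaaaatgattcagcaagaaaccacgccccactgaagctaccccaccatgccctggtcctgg

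Of the 6 windows, that of *Ctss* holds 2 matches, those of *Siglech*, *Fcgr3* and *Clec7a* hold 1 each, and those of *Fcgr2b* and *Cst7* hold 0. Over the 33 members with a RefSeq promoter, 18 (54.5%) hold the motif on either strand, against 9289 of 32851 (28.3%) of all promoters in the table. A match describes the letters only.

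*Ctss* encodes cathepsin S, a lysosomal cysteine protease that also trims the invariant chain for antigen presentation. *Ctss* in *APOE*3 males was 50.5, 48.7, 53.2 and 52.5 CPM in controls and 56.1, 49.9, 47 and 53.2 CPM in nPM mice. *Ctss* in *APOE*4 males was 36.2, 40.8, 43 and 41.5 CPM in controls and 38.8, 34.5, 42.5 and 37.5 CPM in nPM mice. In each exposure every *APOE*4 male was below every *APOE*3 male, at a mean of 40.3 ± 2.95 against 51.3 ± 2.02 CPM in controls and 38.3 ± 3.33 against 51.6 ± 3.95 CPM in nPM mice (SD, n = 4). *Ctss* fell by 0.34 ± 0.06 on the log2 scale in controls (limma, adjusted p = 0.0456) and by 0.42 ± 0.07 in nPM males (adjusted p = 0.0241), with exact permutation p = 0.0286 in both. *Ctss* in *APOE*3 females was 67.6, 84.8, 100.1 and 67.3 CPM in controls and 82.6, 38.2, 42.4 and 49.4 CPM in nPM mice. *Ctss* in *APOE*4 females was 121, 39.4, 36.6 and 44.2 CPM in controls and 42.5, 35, 40.5 and 36.9 CPM in nPM mice. Apart from control 21, *APOE*4 females were between 35.0 and 44.2 CPM and *APOE*3 females between 38.2 and 100.1 CPM.

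*Siglech*, a sialic acid-binding receptor found on microglia but on few other brain macrophages, showed the same order. *Siglech* in *APOE*3 males was 13.7, 14.1, 14.8 and 13.5 CPM in controls and 15.2, 13.6, 11.9 and 14 CPM in nPM mice. *Siglech* in *APOE*4 males was 9.35, 10.2, 11.3 and 10.7 CPM in controls and 10.6, 9.39, 11.7 and 11.4 CPM in nPM mice. No *APOE*4 male reached the lowest *APOE*3 male. The difference was -0.42 ± 0.08 in controls (limma, adjusted p = 0.0456) and -0.33 ± 0.09 in nPM males (adjusted p = 0.212, past an unadjusted p of 0.005 only). *Siglech* in *APOE*3 females was 20.3, 22.7, 31.4 and 17.1 CPM in controls and 19.4, 15.4, 11.4 and 14.5 CPM in nPM mice. *Siglech* in *APOE*4 females was 19.2, 10.6, 9.76 and 10.7 CPM in controls and 11.7, 12.4, 10.7 and 9.83 CPM in nPM mice. With control 21 aside, *APOE*4 females were at 9.76 to 12.4 CPM and *APOE*3 females at 11.4 to 31.4 CPM. *Siglech* in B6 females was 3.4, 6.15, 4.61 and 6.08 CPM in controls and 8.002, 3.62, 6.14 and 4.03 CPM in nPM mice. *Siglech* in B6 males was 9.74, 4.1, 3.72 and 7.69 CPM in controls and 5.66, 2.88, 2.89 and 7.57 CPM in nPM mice. B6 mice had lower values, from a different table.

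*Fcgr3* encodes an activating IgG receptor that signals through *Fcer1g*. *Fcgr3* in *APOE*3 males was 9.12, 9.42, 11 and 11.4 CPM in controls and 10.5, 10.2, 9.89 and 12 CPM in nPM mice. *Fcgr3* in *APOE*4 males was 7.72, 8.79, 8.01 and 8.44 CPM in controls and 7.54, 8.01, 6.72 and 7.36 CPM in nPM mice. *APOE*4 males were below *APOE*3 males in both exposures. The difference was -0.50 ± 0.08 in nPM males (limma, adjusted p = 0.0199) and -0.29 ± 0.09 in controls (adjusted p = 0.45). *Fcgr3* in *APOE*3 females was 16.9, 27.2, 31.1 and 18.6 CPM in controls and 22.2, 12, 11.3 and 14.1 CPM in nPM mice. *Fcgr3* in *APOE*4 females was 27.9, 8.51, 8.998 and 15 CPM in controls and 11.5, 9.45, 7.93 and 9.14 CPM in nPM mice. *APOE*3 female controls 61 and F6 and *APOE*4 female control 21 were the highest. *Fcer1g*, the signalling chain, was likewise lower, by 0.51 (log2) in control males (adjusted p = 0.0632) and by 0.60 in nPM males (adjusted p = 0.224).

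*Fcgr2b*, the inhibitory IgG receptor, went the other way. *Fcgr2b* in *APOE*3 males was 2.06, 2.01, 3.17 and 2.94 CPM in controls and 2.62, 2.21, 2.19 and 2.87 CPM in nPM mice. *Fcgr2b* in *APOE*4 males was 4.8, 4.22, 4.69 and 4.35 CPM in controls and 4.54, 4.56, 5.04 and 5.87 CPM in nPM mice. Each *APOE*4 male was above each *APOE*3 male. The log2 difference was 0.74 ± 0.14 in controls (limma, adjusted p = 0.0456) and 0.89 ± 0.11 in nPM males (adjusted p = 0.00347). *Fcgr2b* in *APOE*3 females was 4.36, 4.73, 5.95 and 3.74 CPM in controls and 3.9, 3.16, 2.27 and 3.05 CPM in nPM mice. *Fcgr2b* in *APOE*4 females was 7.95, 5.65, 4.01 and 3.57 CPM in controls and 3.56, 2.9, 5.18 and 5.4 CPM in nPM mice. Female groups overlapped in both exposures. *Fcgr2b* in B6 females was 1.87, 3.09, 2.25 and 1.2 CPM in controls and 1.18, 0.0352, 2.92 and 2.66 CPM in nPM mice. *Fcgr2b* in B6 males was 0.131, 1.22, 2.53 and 3.02 CPM in controls and 2.55, 1.43, 1.56 and 1.08 CPM in nPM mice. *Fcgr2b* had no reads in B6 female nPM mouse 51. *Fcgr2b*, *Fcgr3* and *Fcer1g* lie within 274 kb of each other on chromosome 1 (170960558 to 171234350, mm10). Of the 50-base stretches of *Fcgr3*, 9.58% also occur in *Fcgr2b*, and reads from such stretches cannot be placed uniquely.

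**Figure D5:**
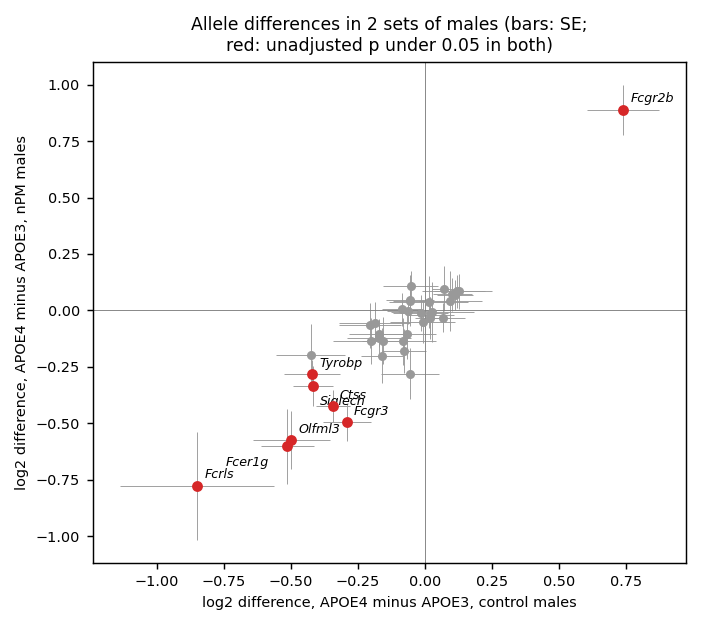
Each point is a member, with the APOE4 minus APOE3 log2 difference in control males on the x axis and in nPM males on the y axis (bars SE). The 8 members in red were at an unadjusted p under 0.05 in both sets of males, 7 of them lower and Fcgr2b higher.

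*Tyrobp* (-0.42 and -0.28), *Olfml3* (-0.50 and -0.57) and *Fcrls* (-0.85 and -0.78) complete the set in control and nPM males (log2 differences), without passing 5% FDR there. Other genes of these cells and markers of other cells were read from lists. Among 17 further disease-associated genes, 5 were lower at p under 0.05 in control and 6 in nPM males, and *B2m*, the light chain of MHC class I, passed 5% FDR in both (-0.32, adjusted p = 0.0377, and -0.28, adjusted p = 0.0219). Of 14 further homeostatic and core genes, 5 were lower in control and 1 in nPM males. None of 7 genes of TREM2 and ITAM signalling or 7 microglial transcription factors was at p under 0.05 in either set (limma), and of 7 receptor ligands 0 and 1 were. Of 6 genes of inflammatory output with reads in every mouse, 1 was higher in control and 0 in nPM males.

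Markers of other cells moved with part of this. Of 7 endothelial markers, 2 were lower at p under 0.05 in control and 5 in nPM males, where *Flt1*, a VEGF receptor, passed 5% FDR (-0.54, adjusted p = 0.0330). The summed endothelial markers were 103 to 143 CPM in *APOE*3 and 90.2 to 119.97 CPM in *APOE*4 control males, and 134 to 148 and 100.03 to 117 CPM in nPM males. Astrocyte markers were lower in 2 of 7 cases in both sets, and oligodendrocyte, precursor, neuronal and border macrophage markers in 0 of 7 each. The part of these cells in the member differences was not tested.

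In females the allele comparison gave no member at 5% FDR by limma with all mice. In controls 0 of 39 passed (limma, against 0.232% of all genes), edgeR on recovered reads called 0 and DESeq2 4. The share of all genes called by DESeq2 was not counted. At an unadjusted p under 0.05, 7 members were lower (*Siglech* -0.86, *Gpr34* -0.99, *P2ry12* -0.80, *Cd53* -0.78, *Aif1* -0.74, *Rgs10* -0.66 and *P2ry13* -0.53) and 1 higher (*P2ry6* 0.49), where 20.3% of all genes were lower. This contrast set control 21 on one side against *APOE*3 controls F6 and 61 on the other. Without control 21, 21 members were lower at p under 0.05, where 17.9% of all genes were, and the median went from -0.11 to -0.38. Without F6 and 61, 2 were lower, where 11.8% of all genes were. Without all 3 mice 25 were lower (12.8% of all genes), and 10 passed 5% FDR (4.69% of all genes). With the length slope as a covariate 0 were lower, against 7.06% of all genes, with a median of -0.03. The slope was -0.658 to -0.138 in *APOE*3 and -0.125 to 0.002 in *APOE*4 controls. These ranges do not overlap, so that fit cannot tell the allele from the slope. In nPM females 0 of 39 passed (limma, against 0.145% of all genes; edgeR and DESeq2 called 0), and 10 were lower and 0 higher at p under 0.05, where 4.47% of all genes were lower. These 10 were *Clec7a* (-0.88), *Fcrls* (-0.83), *Fcgr3* (-0.58), *Tyrobp* (-0.52), *Fcer1g* (-0.51), *Cst7* (-0.48), *Siglech* (-0.41), *Olfml3* (-0.41), *Trem2* (-0.38) and *Cd68* (-0.28).

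Over all 48 mice, *Fcrls* was the 1 member of 34 tested at 5% FDR, against 0.379% of all genes. *Fcrls* encodes an Fc receptor-like protein expressed by microglia. *Fcrls* in *APOE*3 females was 13.2, 35, 35.2 and 18.8 CPM in controls and 11.3, 25.7, 11.7 and 25.5 CPM in nPM mice. *Fcrls* in *APOE*4 females was 31.8, 11.9, 12.3 and 11.5 CPM in controls and 7.05, 12.7, 12 and 7.4 CPM in nPM mice. *APOE*3 controls 61 and F6 and *APOE*4 control 21 were the highest females. *Fcrls* in *APOE*3 males was 9.81, 13.1, 9.23 and 18.5 CPM in controls and 9.56, 12.9, 12.7 and 18.8 CPM in nPM mice. *Fcrls* in *APOE*4 males was 10.3, 4.87, 8.97 and 3.97 CPM in controls and 8.76, 4.22, 9.07 and 9.06 CPM in nPM mice. *APOE*4 mice were lower on average in each stratum, with overlap in all but nPM males. The difference was -0.77 ± 0.18 (log2, limma, adjusted p = 0.0289). *Siglech* (-0.50), *Olfml3* (-0.51), *Ctss* (-0.43) and *Fcgr3* (-0.53) were lower at an unadjusted p under 0.005, which 1.9% of all genes passed. Under 0.05, 9 members were lower and 0 higher, where 5.24% of all genes were lower and 9.89% higher. The median of the members was -0.14 against 0.01 for all genes. Markers of other cell types also differed: 3 of 7 astrocyte markers were lower at an unadjusted p under 0.05 (*Aqp4* -0.43, *S100b* -0.36 and Gja1 -0.18), and the oligodendrocyte precursor markers *Cspg4* (0.34) and Sox10 (0.41) were higher, and their part in the result was not tested. Without control 21, 5 members passed 5% FDR (0.415% of all genes did, and the members were *Ctss* -0.53, *Fcgr3* -0.61, *Fcrls* -0.86, *Olfml3* -0.58 and *Siglech* -0.55), and with the 32 *APOE*-TR mice alone 7 of 38 did, the same 5 with *Fcer1g* and *Fcgr2b*, against 5.95% of all genes. Without *APOE*3 female controls F6 and 61 none did (0.307% of all genes), 6 were lower at p under 0.05 where 1.60% of all genes were, and *Fcrls* was at -0.65 (adjusted p = 0.17).

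Differences between nPM responses were tested last. Between sexes, 1 of 34 members passed an unadjusted p of 0.005, against 1.98% of all genes: the nPM response of *Gpr34* was lower in females than in males by 0.62 ± 0.20 (log2, unadjusted p = 0.0028, adjusted p = 0.228), on the values given above. It did not pass without *APOE*3 female controls F6 and 61, nor without *APOE*4 female control 21. Between alleles over both sexes 0 of 38 passed (limma, against 0.727% of all genes, 3 at p under 0.05; edgeR and DESeq2 called 0), and in males 0 of 38 (limma, against 0.0313% of all genes, 0 at p under 0.05; edgeR and DESeq2 called 0). In females 1 of 38 members passed, a share of 2.63% and below the 3.76% of all genes. This was *P2ry12*, whose response was higher in *APOE*4 than in *APOE*3 mice by 0.76 ± 0.22 (limma, unadjusted p = 0.00223, adjusted p = 0.126). It too did not pass without controls F6 and 61. Without control 21, 7 of 38 members passed, against 3.33% of all genes, and 13 were higher at p under 0.05, where 13.4% of all genes were. Without all 3 mice 2 passed, against 0.948% of all genes.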

How the data were processed

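Cerebral cortex RNA of 48 mice was sequenced (TruSeq Stranded mRNA, single-end). According to the study's methods, the authors aligned reads with TopHat2 2.0.8b to mm10, kept uniquely mapping reads and quantified RefSeq genes in Partek Flow. The values deposited by the authors are CPM, in 1 table for B6 mice (27082 genes) and 1 for *APOE*-TR mice (18939 genes), without counts or depths. Depth was estimated from the step between low values. In *APOE*-TR mice 96.1 to 97.1% of the low values were whole multiples of the step, so reads were recovered for count tests as an alternative; in B6 mice the share was 87.7 to 98.4% and they were not. From each table, 4 listings with a duplicated symbol were dropped. The column of *APOE*3 female control F6 shows its group but matches no sample label by number, and was used as a replicate of that group.

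CPM were rescaled by TMM factors within each table, from genes with reads in every mouse, and tested as log2(CPM + 0.5) with limma 3.58.1 in R 4.3.3 (trended variance), so fold changes of weak genes are understated. A gene entered a fit if each of its mice had a read of it, and p-values were adjusted over all of them by Benjamini-Hochberg. The fit of 48 mice had terms for sex, genotype and nPM; strata of 8 mice were fitted separately; differences between responses came from group means of all 48 mice (sexes) or of the 32 *APOE*-TR mice (alleles). Calls followed the study's thresholds, an unadjusted p under 0.005 for nPM and its interactions and 5% FDR for the allele. Exact permutation tests of single genes were two-sided, over 70 labelings. Alternatives were other scalings, pseudocounts of 0.1 and 2, no filter, voom with ComBat (sva 3.50.0), edgeR 4.0.16 and DESeq2 1.42.0 on recovered reads, a transcript-length covariate, other sets of mice, and leaving out each mouse. The limma fits were tested on simulated data with a single spread for every gene and no libraries that stand apart. That checks the fitting steps and not the error rate in these data.

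The members and gene lists were chosen with earlier results of these data known. Every member is named with a value; 19 are described in full, with the value in every mouse: those called in a comparison (at most the 6 smallest p per comparison and direction), *Cx3cr1*, *P2ry12*, *Tmem119*, *Csf1r*, *Trem2*, *Tyrobp*, *Aif1*, *Cd68*, *Cst7*, *Clec7a* and *Lgals3*. From other lists at most 3 called genes per comparison are named. Nothing in the labels says whether mice shared a litter or cage, so p-values measure the spread between these mice.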

Additional observations from a re-analysis of the deposited data

Results flagged for a closer look

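In groups of 4 mice, a mouse was looked at again where its gap to the nearest other mouse, divided by the range of the group, passed Dixon's 95% critical value. Over 240 groups of the 19 fully described genes and the mean of all members, 19 passed, where chance gives about 1 in 20, and 11 of the 19 were *APOE*4 female control 21. Its ratios were 0.9937 for *Cst7*, 0.9548 for *Trem2*, 0.9412 for *Cd68*, 0.9401 for *Fcrls*, 0.9366 for *Aif1*, 0.9299 for *Clec7a*, 0.8641 for *Siglech*, 0.8457 for *Csf1r*, 0.8428 for *Tyrobp*, 0.8421 for *Ctss* and 0.8997 for the mean of all members. This mouse was the highest of its group in all 11.

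The other 8 were spread over 7 mice. B6 male nPM mouse 10 was high for *Aif1* (0.9001), *APOE*3 female control 52 (0.8741) and *APOE*4 male nPM mouse 65 (0.8509) were high for *Cd68*, and *APOE*4 male nPM mouse 33 was low for *Fcrls* (0.9532). B6 female nPM mouse 53 was high for *Cst7* and *Clec7a* (0.9303 each), but all 4 mice of its group were without reads of either gene, and the value given to such a gene is higher in a shallower library. For the mean of all members, *APOE*3 female control 63 was low (0.9056) and B6 female nPM mouse 52 was high (0.855).

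The nPM response differed between sexes for *Gpr34* (unadjusted p = 0.002804) and between alleles in females for *P2ry12* (unadjusted p = 0.002235), both from limma, and neither passed adjustment over all genes.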

How the results depend on the processing

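No called value reversed its direction under the alternatives run. No paired analysis was possible because the labels name no pairs. Within a sex, the groups compared share no number, and some numbers recur between the sexes. The count of members called for nPM in all 48 mice (1) became 0 with median-of-ratios scaling, voom, only B6, only *APOE*-TR or only male mice, and 2 averaged over 6 strata. In B6 females (1) it was 2 without a filter, 0 with voom and 4 in a fit of 12 groups, and in B6 males (0) 1 in that fit. In *APOE*3 females (1) it was 7 with DESeq2 and 6 in the 12-group fit, and the 15 members at p under 0.05 became 7 with the length covariate (median -0.24 and -0.21), which also moved the *APOE*4 female median from -0.21 to 0.18. For the allele in 48 mice (1) it was 2 with a pseudocount of 2, 4 with voom, 0 with the length covariate and 7 in the 32 *APOE*-TR mice. In control females (0) DESeq2 called 4. In control males (3) 0 were called without a filter and 5 with DESeq2, and in nPM males (3) 1 with the length covariate. For the response between sexes (1), voom and the length covariate gave 0. For alleles in females (1), the values without further scaling gave 2 and the length covariate 0. Except with the *APOE*-TR mice alone, the share of all genes called was not counted in these fits. A higher or lower count is therefore not shown to be particular to the members. The cause was not tested.

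Chosen after seeing the data, leaving out *APOE*3 female controls F6 and 61 gave 0 calls for nPM and the allele in 48 mice, nPM in *APOE*3 females (5 members at p under 0.05) and both responses. Leaving out *APOE*4 female control 21 as well gave 0 for nPM, 3 for the allele in 48 mice (0.352% of all genes), 10 in control females (4.69% of all genes) and 0 between sexes. In females between alleles it gave 2 (0.948% of all genes), with a median of 0.27 (-0.03 with all mice).

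With each mouse left out in turn, calls ranged from 0 to 2 for nPM in 48 mice, 0 to 1 in B6 females, 0 to 5 in *APOE*3 females (7 to 17 members at p under 0.05), 0 to 5 for the allele in 48 mice, 0 to 5 in control females, 0 to 1 in control males and 1 to 3 in nPM males. Between sexes they ranged from 0 to 2, between alleles from 0 to 2, and in females from 0 to 7 with medians from -0.12 to 0.21. The highest counts for the allele in 48 mice (5) and between alleles (2, and 7 in females) came without *APOE*4 female control 21. There 0.415%, 0.638% and 3.33% of all genes passed. For leaving out any other mouse, the share of all genes was not counted. Depth limited *Cst7*, *Clec7a*, *Lgals3*, *Plcg2* and *Fcgr2b* in B6 mice.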

Other observations

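Of 34 members with reads in every B6 mouse, 2 did not overlap between the sexes, both higher in males, where 2% of all 13856 such genes were higher in every male than in every female. *Trem2* was 1.51 to 3.8 CPM in the 8 females and 6.54 to 16.8 CPM in the 8 males, and *Tyrobp* 1.87 to 3.98 and 6.62 to 9.59 CPM. Among *APOE*-TR mice 0 of 38 members separated the sexes, against 6.56% of all 15965 genes with reads in every mouse. Depth was 4.8 to 24.4 M (mega) reads in B6 females and 2.05 to 17.2 M reads in B6 males. Summed astrocyte markers were 3167 to 3654 CPM in B6 female controls and 1150 to 2476 CPM in male controls. In nPM mice they were 2392 to 2991 CPM in females and 1390 to 2972 CPM in males. Mean length slopes were 0.114 in female and -0.111 in male controls, and 0.0684 and -0.0712 in nPM mice. The part of depth, other cells and transcript length in these values was not tested.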
